A study of Pseudopodoces humilis with 2 samples.

Results

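Head-to-head gene pairs are neighbouring genes on opposite strands whose 5′ ends face each other, so that the genes are transcribed away from a common gap. In vertebrates such a gap can act as a bidirectional promoter, a stretch of DNA from which RNA polymerase starts in both directions, and genes that share one are often broadly expressed ones with upkeep roles. Partners of a pair can be expressed together, but each can also have enhancers and a start site of its own. Here 790 pairs with 1000 or fewer bases between the facing ends were described in the ground tit (Pseudopodoces humilis), out of 2115 neighbouring pairs of any orientation at that distance. A pair was chosen by position alone: a minus-strand locus followed on its scaffold by a plus-strand locus that it does not overlap.

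The samples were 1 liver and 1 muscle of the ground tit, a songbird of the Tibetan plateau, from total RNA; the labels give no age, sex or treatment. Transcripts assembled from the reads were deposited in 1 set for liver and 2 for muscle, muscle-2 and muscle-3, which belong to the same muscle sample. A locus was made by joining all transcripts of 2 or more exons that share at least 1 base on the same strand, with the 3 assemblies pooled. With 1 sample per tissue no difference between liver and muscle could be tested, and none was. Intervals are Wilson 95% intervals and cover counting error only. In bulk tissue, fewer cells of a type and less RNA per cell cannot be told apart.

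The reads behind the gene table came to 46313678 for liver and to 86472618 and 47542891 for 2 libraries averaged as muscle, totals worked out from the deposited values. Nothing ties these 2 libraries to muscle-2 and muscle-3. The assemblies held 23614 transcripts in liver, 31092 in muscle-2 and 27092 in muscle-3. Of these, 17536, 21109 and 19743 were spliced, each with a strand, and the unspliced ones had none. Pooled, the spliced transcripts formed 14921 loci on 2529 scaffolds, 7463 on the minus and 7458 on the plus strand. The files pair neither loci nor gene IDs with gene names, so pairs are given by scaffold and position, and the tissue labels could not be set against marker genes.

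Close neighbours were often head-to-head, and their gaps were short. The 790 pairs hold 1580 loci, 10.6% of all spliced loci, and no locus was in more than 1 pair. They made up 37.4% (35.3 to 39.4) of the neighbouring pairs within 1 kb, beside 400 tail-to-tail pairs (18.9%), whose 3′ ends face each other, and 925 pairs on the same strand (43.7%). Of all head-to-head neighbours up to 10 kb apart, 45.0% (42.7 to 47.3) lay within 1 kb. The same share was 24.7% (22.7 to 26.9) for tail-to-tail and 24.6% (23.2 to 26.0) for same-strand neighbours. Neighbours on the same strand can be 1 gene assembled in pieces, so that class is not a clean set of gene pairs. Neighbours whose ends overlap were not counted. A further 152 head-to-head pairs overlapped at their 5′ ends by 1 to 1000 bases, 17 of them by 100 bases or fewer. Overlaps in the other orientations were not worked out. The shares by orientation hold only for loci that do not overlap once the assemblies are pooled.

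The gap had a median of 283 bases and quartiles of 143 and 533, with a range of 3 to 997. For tail-to-tail pairs the median was 473 and for same-strand pairs 486 bases. At 300 bases or fewer lay 419 head-to-head pairs (53.0%, 49.6 to 56.5), against 123 tail-to-tail pairs (30.8%, 26.4 to 35.4) and 291 same-strand pairs (31.5%, 28.5 to 34.5). The fullest 50-base bin was that of 100 to 149 bases, with 92 head-to-head, 19 tail-to-tail and 63 same-strand pairs. From 950 to 999 bases the numbers were 9, 17 and 41. Head-to-head gaps thus thinned out toward the limit of 1 kb, while the other orientations stayed about level. No test was made between orientations, since close loci of one scaffold are not independent of each other.

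**Figure D1:**
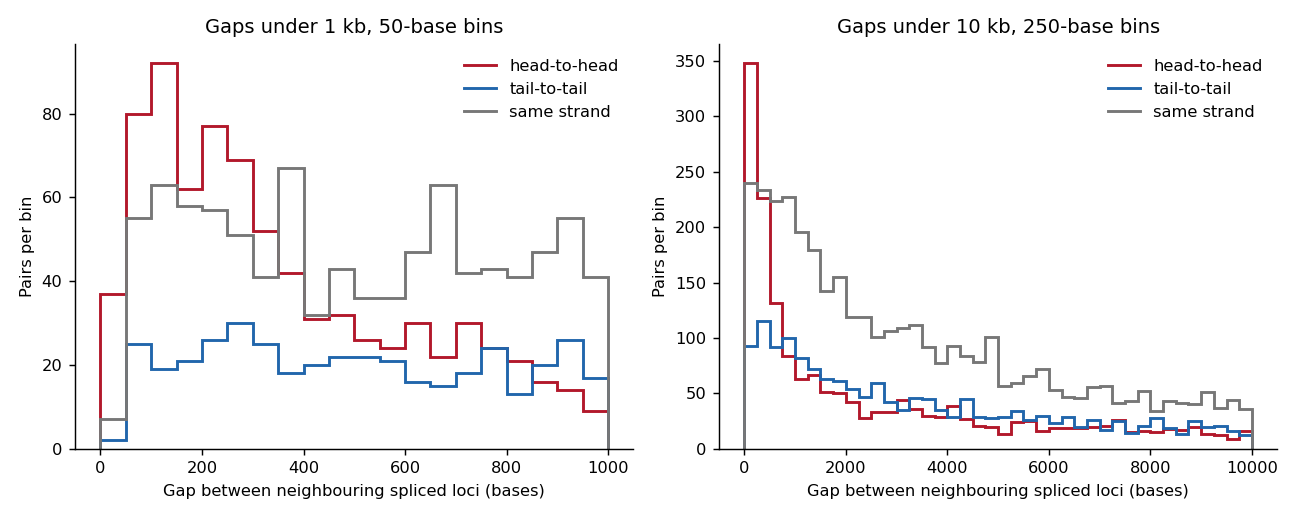
Number of neighbouring pairs of spliced loci (vertical) by the gap between them in bases (horizontal), for head-to-head, tail-to-tail and same-strand pairs. Bins are 50 bases wide up to 1 kb on the left and 250 bases wide up to 10 kb on the right. Head-to-head pairs peak at 92 in the bin of 100 to 149 bases, where there are 19 tail-to-tail pairs.

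Just inside the limit of 1 kb were pairs with gaps of 997 bases on scaffold 23048 (from 211819 to 212815), 984 bases on scaffold 15775 and 977 bases on scaffold 15019. Just outside it were gaps of 1001 bases on scaffold 4893 and of 1002 bases on scaffolds 14825 and 22574. The edge is a chosen number: on scaffold 23048 the gap was 1035 bases in liver, 997 in muscle-2 and 1029 in muscle-3.

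Pairs were spread over 415 scaffolds, of which 243 held 1 pair. The 28 scaffolds with 5 or more pairs held 182 of them. Scaffold 3513 held 14 pairs among 117 spliced loci, scaffold 23084 held 12 among 85 and scaffold 22978 held 11 among 146. Some head-to-head pairs stood next to tail-to-tail ones. At least 1 partner had a tail-to-tail neighbour within 1 kb in 121 pairs, and both had one in 8. As a share of loci this was 129 of 1580 partners (8.16%), against 671 of 13341 other loci (5.03%). By the rule every partner has a close neighbour on its scaffold, which other loci need not have. The part of this in the shares was not tested. In 21 pairs another spliced locus had its leftmost base between the leftmost bases of the partners, and in 4 another locus reached into the gap.

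The 10 smallest gaps ran from 3 to 25 bases. The smallest, on scaffold 11323, separated a minus-strand locus of 13 exons (938460 to 964466) from a plus-strand locus of 25 exons (964470 to 988177). The liver assembly set its minus-strand side and muscle-3 its plus-strand side. Within liver the facing ends were 6 bases apart, against 494 in muscle-2 and 3094 in muscle-3. In muscle-2 and muscle-3 the minus-strand partner began further away, while the plus-strand partner began at nearly the same base in all 3 assemblies. On scaffold 18177 the gap was 4 bases (1040843 to 1040846), between partners of 4 and 21 exons. No single assembly showed it so narrow, with 388 bases in liver, 52 in muscle-2 and 432 in muscle-3. The gap of 7 bases on scaffold 21953, between loci of 14 and 9 exons, was 51 bases in liver, 9 in muscle-2 and 79 in muscle-3.

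Other very small gaps were 6 bases on scaffold 21507 (partners of 38 and 8 exons), 10 on scaffold 23079 (14 and 9 exons), 13 on scaffold 23042 (14 and 3 exons) and 18 on scaffold 22289 (9 and 15 exons). Gaps of 25 bases were found on scaffolds 6238 and 22978. On scaffold 14203 a gap of 14 bases separated 2 long loci, of 48 exons (1750900 to 1890710) and 53 exons (1890725 to 2011399). There the assemblies differed little, with gaps of 98 bases in liver, 64 in muscle-2 and 29 in muscle-3. Of these 10 pairs, 8 had both partners in all 3 assemblies. The exceptions were the plus-strand partners on scaffold 21507, missing from liver, and on scaffold 23079, missing from muscle-2.

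The pooled gap is the smallest that the ends allow, because each end is taken from the assembly that reaches furthest. Rebuilt from 1 assembly alone, liver gave 500 head-to-head pairs within 1 kb with a median gap of 332 bases, muscle-2 gave 639 with 304 bases and muscle-3 gave 545 with 312 bases. Of the 790 pairs, 785 had both partners together in at least 1 assembly. In 753 (95.3%) at least 1 assembly by itself placed the partners within 1 kb, and in 513 (64.9%) every assembly that held both did so. For 37 pairs no single assembly showed a gap within the limit. They exist only through the pooling.

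Gaps were wider in liver than in either muscle assembly. Over the 424 pairs with both partners in all 3 assemblies, the median gap was 512 bases in liver, 346.5 in muscle-2 and 446 in muscle-3. Liver had the wider gap in 314 of 424 pairs against muscle-2 and in 286 against muscle-3, by a median of 63 and 42.5 bases. Between the muscle assemblies, muscle-3 had the wider gap in 258 pairs and muscle-2 in 162, with a median difference of 17 bases. Liver held the fewest transcripts, muscle-3 more and muscle-2 the most, so the order of the gaps follows the number of transcripts as well as the tissue. Their part in the result was not tested. The rank correlation of the gap between assemblies was 0.55 for liver and muscle-2, 0.58 for liver and muscle-3 and 0.58 for muscle-3 and muscle-2, across 424 pairs chosen for a small pooled gap.

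**Figure D2:**
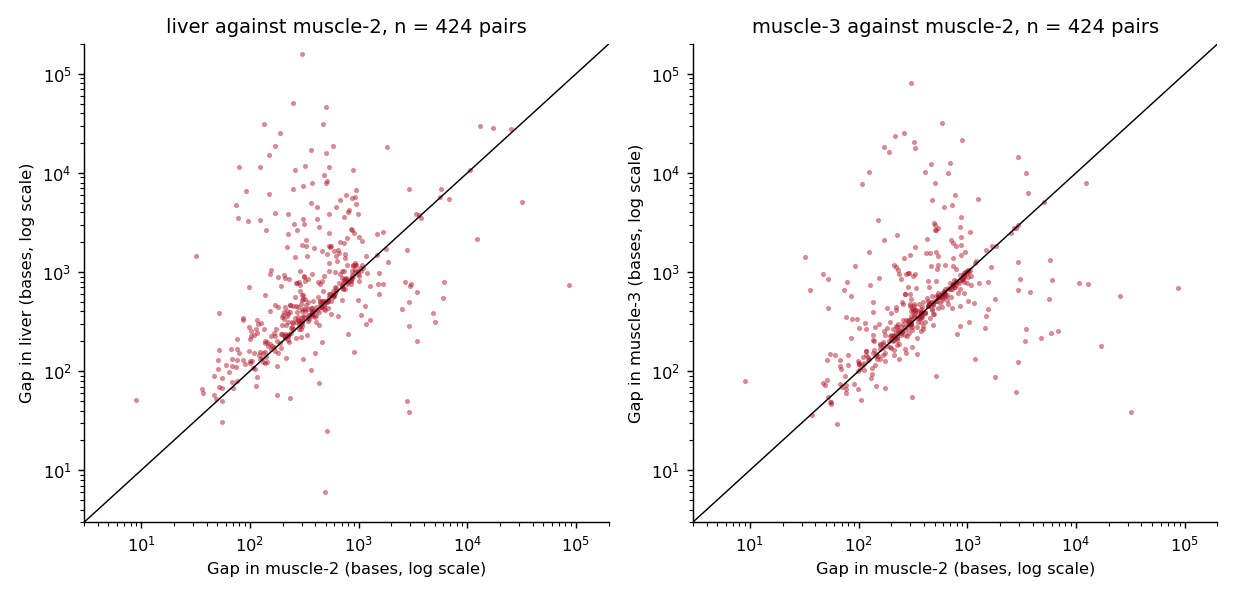
Gap between the facing ends in liver (left) and muscle-3 (right) on the vertical axis, against the gap in muscle-2 on the horizontal axis, in bases on log scales, for 424 pairs with both partners in all 3 assemblies. The line marks equal gaps. In liver 314 pairs lie above it, while 136 lie within 50 bases of it. In muscle-3 those numbers are 258 and 184.

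How far the gap moved between assemblies varied from 2 to 156618 bases. The range of the gap over the 3 assemblies had a median of 250.5 bases and quartiles of 65.8 and 1544. It was 50 bases or fewer in 86 pairs (20.3%) and over 1000 bases in 134. The steadiest pairs were on scaffold 3513 (705268 to 719318), with gaps of 796 bases in liver, 798 in muscle-2 and 797 in muscle-3, and on scaffold 14076 (1270233 to 1287651), with 68, 70 and 70 bases. On scaffold 22978 (1488419 to 1500386) the gaps were 346, 342 and 346 bases in that order. Scaffold 9652 followed with 228, 226 and 223 bases in that order, and scaffold 14456 with 50, 56 and 47.

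At the other end stood scaffold 21532, where the plus-strand partner of 52 exons reached position 1340044. Its gap was 156921 bases in liver, 303 in muscle-2 and 80829 in muscle-3, since only muscle-2 carried this partner up to the gap. On scaffold 11778 it was muscle-2 that fell short, with 736 bases in liver, 85947 in muscle-2 and 695 in muscle-3. The gap on scaffold 5791 was 50429 bases in liver, 249 in muscle-2 and 500 in muscle-3. On scaffold 22354 it was 46051 bases in liver, 503 in muscle-2 and 2952 in muscle-3. On scaffold 12405 it was 5124 bases in liver, 31795 in muscle-2 and 39 in muscle-3. Liver had the widest gap in 3 of these 5 pairs and muscle-2 in 2. Over all 424 pairs, the widest gap of the 3 was that of liver in 252, of muscle-2 in 65 and of muscle-3 in 104.

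The facing ends of the partners were placed more closely than their far ends. Between liver and muscle-2, the 5′ ends of 1202 partners differed by a median of 37.5 bases and the 3′ ends by 126 bases. Within 50 bases lay 55.3% (52.5 to 58.1) of the 5′ ends and 33.8% (31.2 to 36.5) of the 3′ ends. Between muscle-3 and muscle-2 the medians were 22 and 79 bases, with 64.1% (61.4 to 66.7) and 40.6% (38.0 to 43.3) within 50 bases. Other spliced loci showed the same order, with medians of 44 and 113 bases between liver and muscle-2. A difference over 1000 bases at the 5′ end was found in 14.1% of partners and 20.9% of other loci between liver and muscle-2. A partner cannot start further out than its neighbour's end without overlapping it, so the rule itself limits how far the pooled 5′ end can move.

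**Figure D3:**
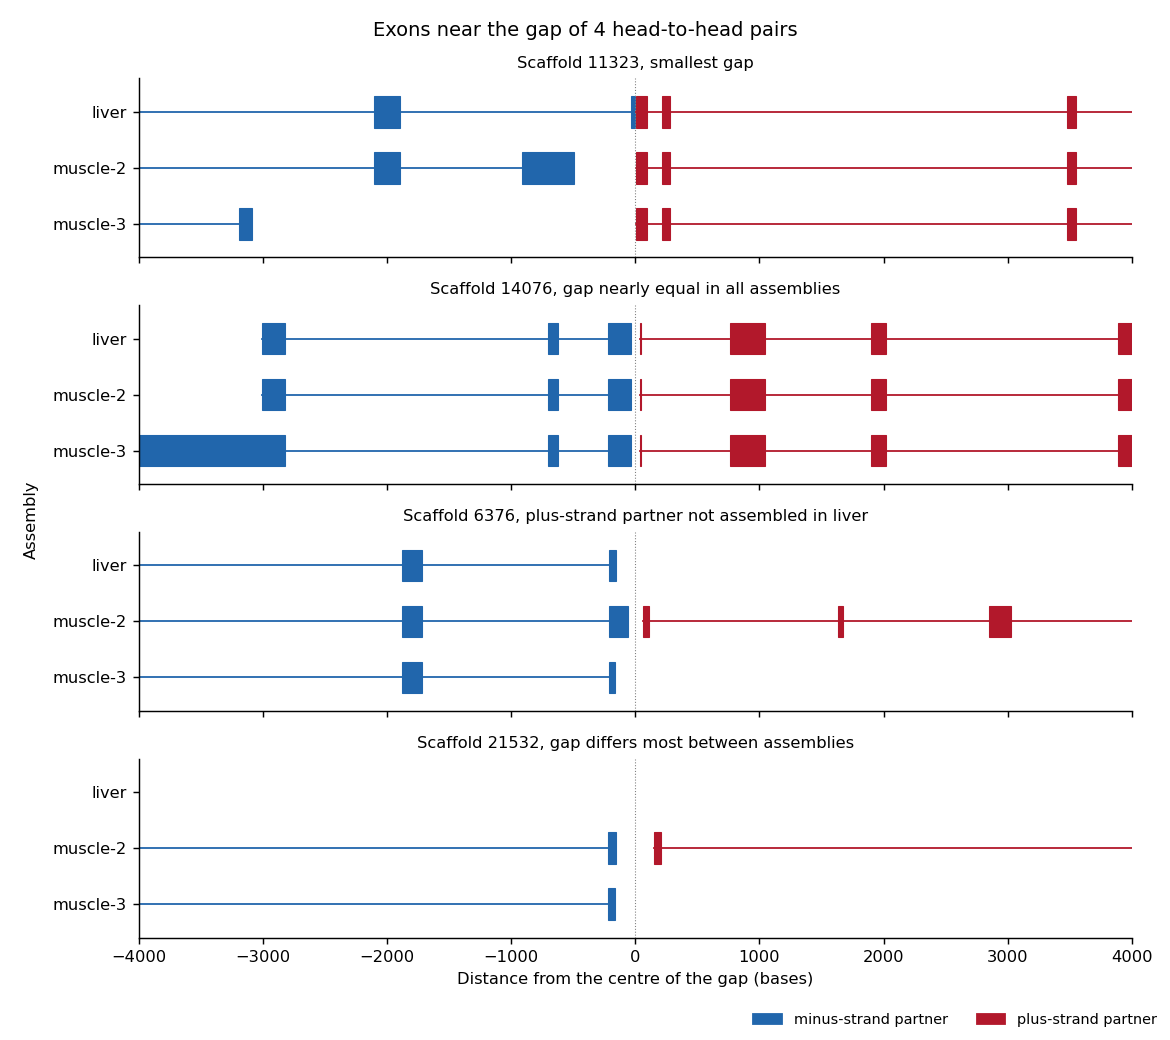
Exons (boxes) of 4 pairs within 4 kb of the centre of the gap (dotted line), in bases along the horizontal axis, with 1 transcript per assembly and partner, the one reaching furthest at its 5′ end. On scaffold 11323 the gap of 6 bases is seen in liver alone, and on scaffold 14076 the gaps of 68, 70 and 70 bases line up. Scaffold 6376 has no plus-strand partner in liver, and on scaffold 21532 muscle-2 alone brings both partners to the gap.

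Most partners were assembled in both tissues. A spliced transcript in liver was found for 1321 of the 1580 partners, 83.6%, against 72.5% of all spliced loci. The shares were 90.7% and 90.2% in muscle-2, 87.6% and 82.8% in muscle-3, and 82.0% and 77.6% in both muscle assemblies. All 3 assemblies held 73.0% of partners, against 63% of all loci. Partners were thus ahead of all loci in liver and muscle-3 and close to them in muscle-2. Partners of tail-to-tail and of wider head-to-head pairs were ahead of all loci there too. For tail-to-tail pairs the shares were 80.1% in liver, 87.5% in muscle-3 and 69.25% in all 3. For head-to-head pairs 1 to 10 kb apart they were 78.3%, 85.2% and 68.3%, and for same-strand pairs 74.5%, 82.7% and 63.6%. Pooled ends reach further where more assemblies hold a locus, so the limit on the gap can itself favour such loci. The part of this in the shares of partners was not tested.

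Both partners were assembled in liver in 563 of 790 pairs (71.3%, 68.0 to 74.3), 1 partner in 195 (24.7%) and neither in 32 (4.05%). In muscle-2 both were assembled in 656 pairs (83.0%, 80.3 to 85.5), in muscle-3 in 606 (76.7%, 73.6 to 79.5) and in both muscle assemblies in 531 (67.2%, 63.9 to 70.4). All 3 assemblies held both partners of 424 pairs (53.7%, 50.2 to 57.1). Tail-to-tail pairs had both partners in liver in 64.5% (59.7 to 69.0), same-strand pairs in 61.6% (58.4 to 64.7) and head-to-head pairs 1 to 10 kb apart in 63.8% (60.7 to 66.7). For all 3 assemblies these shares were 46.5%, 46.6% and 48.6%. The shares of the close head-to-head pairs were the highest of these 4 kinds in liver, in each muscle assembly and in all 3, but the intervals overlap in part. They overlap those of every other kind in muscle-2 and muscle-3, those of tail-to-tail pairs in liver, and those of tail-to-tail and wider head-to-head pairs in all 3. No test was made between kinds of pair.

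Among loci found in at least 1 assembly, the partners' presence was hardly more joint than their separate shares give. In liver, 647 minus-strand and 674 plus-strand partners were assembled, and the product of these shares is 69.9%, beside the 71.3% of pairs with both. In muscle-2 the product was 82.2% beside 83.0%, in muscle-3 76.7% beside 76.7% and in all 3 assemblies 53.3% beside 53.7%. Same-strand pairs lay further above their products, with 61.6% beside 55.6% in liver and 46.6% beside 40.4% in all 3. Tail-to-tail pairs had 64.5% beside 64.1% in liver. Pairs with a partner missing from all 3 assemblies cannot be counted, so these products cannot show whether partners are expressed independently. A transcript present in an assembly says nothing of its level.

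**Figure D4:**
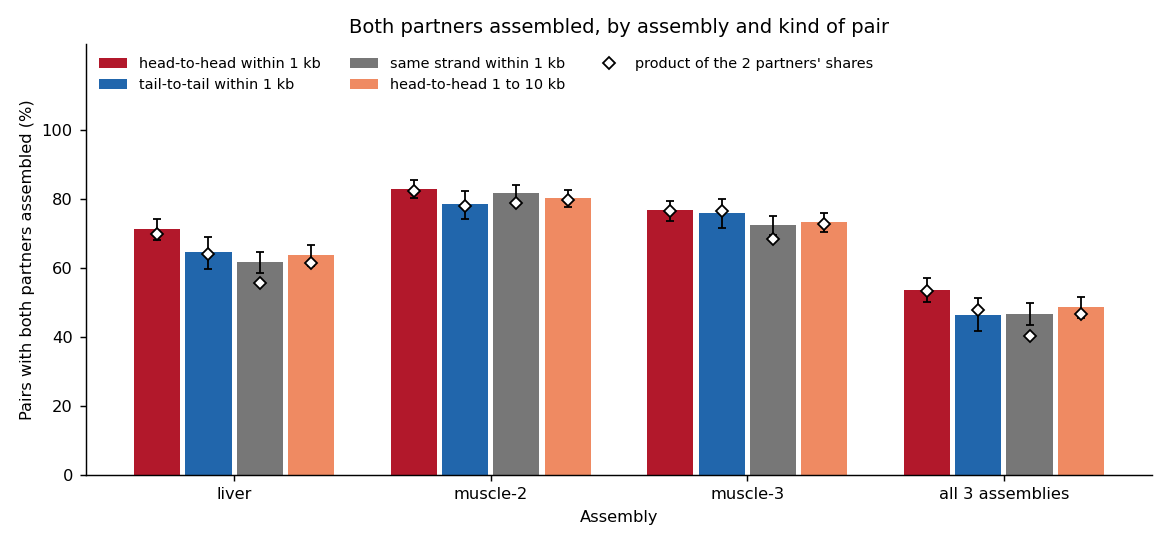
Share of pairs with both partners assembled (vertical, %), in liver, muscle-2, muscle-3 and all 3 assemblies, for 790 head-to-head pairs within 1 kb, 400 tail-to-tail and 925 same-strand pairs within 1 kb, and 966 head-to-head pairs 1 to 10 kb apart. Bars have Wilson 95% intervals and diamonds mark the product of the shares of the 2 partners. For close head-to-head pairs the diamonds lie inside the intervals, at 69.9% beside 71.3% in liver.

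The narrowest pairs were most often whole in liver. Of 118 pairs with gaps up to 100 bases, 98 had both partners in liver (83.1%, 75.3 to 88.8), against 69.7% of the pairs of 101 to 200 bases, 74.7% at 201 to 300, 67.3% at 301 to 500, 63.7% at 501 to 700 and 69.0% (60.0 to 76.8) at 701 to 999 bases. In both muscle assemblies the shares had no order by gap, at 72.0% (63.3 to 79.3), 61.9%, 70.5%, 64.1%, 68.6% and 68.1% (59.1 to 76.0) over the same classes. A partner of 2 exons was found in 11.9% of the pairs of the first class and in 24.8% of the last. Pooled ends reach further where more assemblies hold a locus, so the gap is not independent of presence.

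Both partners were assembled in just the same assemblies in 450 pairs (57.0%), which are the 424 in all 3 and 26 others. Those 26 include 16 pairs found whole in both muscle assemblies and not in liver, and 3 found whole in liver alone. The 424 are 53.7% of pairs, beside a product of the partners' separate shares of 53.3%. For the other kinds of pair the share in just the same assemblies was not worked out. The 57.0% is not read as joint presence. The most frequent unequal patterns had 1 partner in all 3 assemblies. The other partner was in both muscle assemblies but not in liver in 91 pairs, in muscle-2 alone in 74, in liver alone in 45, in liver and muscle-3 in 43, in liver and muscle-2 in 37, and in muscle-3 alone in 16. In 5 pairs the partners had no assembly in common.

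In 195 of 790 pairs (24.7%) 1 partner was assembled in liver and the other was not. That share was 31.25% for tail-to-tail pairs, 25.8% for same-strand pairs and 29.1% for head-to-head pairs 1 to 10 kb apart. In liver the close head-to-head pairs thus had the lowest of these shares, close to that of same-strand pairs. In muscle-2, muscle-3 and all 3 assemblies, same-strand pairs had the lowest share with just 1 partner assembled. It was 14.3% beside 15.3% for close head-to-head pairs in muscle-2, 20.5% beside 21.8% in muscle-3 and 33.9% beside 38.7% in all 3. For liver, other definitions of presence gave 177 to 272 of 790 pairs with 1 partner assembled and the other not. A choice made after the data were seen required an intron found in 2 or more assemblies in both partners. Under it, 92 of 609 pairs had 1 partner in liver and the other not. That condition removes loci found in 1 assembly. In 98 of the 195 the other partner was in both muscle assemblies, so that its absence from liver was set against 2 assemblies. Loci in both muscle assemblies and not in liver were 8.92% of all partners, against 14.6% of all spliced loci. Loci in liver alone were 3.67% of partners and 4.61% of all spliced loci. Pairs in the opposite direction, with 1 partner in liver and no muscle assembly, numbered 52, and in 51 of them the mate was assembled in liver too.

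A missing liver transcript does not show that a gene is silent in liver. The pairs named next come from the 195 with 1 partner assembled in liver and the other not. They were ordered by the exons of a partner found in both muscle assemblies and not in liver, or in liver and in neither muscle assembly. Of the 99 candidates, 98 were of the first kind, so the rule nearly fixed the direction. The 51 pairs with a liver-only partner and a mate also in liver were not candidates. Partners found in 1 muscle assembly alone, such as the minus-strand one of 22 exons on scaffold 11461, were not ranked. On scaffold 6376 a plus-strand locus of 35 exons (737571 to 771117) was assembled in both muscle sets and not in liver, 123 bases from a minus-strand locus of 3 exons (725793 to 737447) found in all 3 sets. Muscle-2 alone brought the long locus up to the gap, with 19160 bases between the partners in muscle-3. The muscle-3 transcript reaching furthest at its 5′ end ran only from 18999 to 22594 bases beyond the centre of the gap. In muscle-2 it ran from 62 to 33608 bases. On scaffold 2701 the partner not assembled in liver was the minus-strand one, of 31 exons (1393877 to 1431745). It lay 120 bases from a plus-strand locus of 3 exons present in all 3 sets. Both muscle assemblies showed the narrow gap there, with 120 and 180 bases.

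Scaffold 9976 held 2 such pairs. In the first a minus-strand locus of 31 exons (3449 to 20895) was not assembled in liver, with gaps of 577 bases in muscle-2 and 1094 in muscle-3. In the second the same held for a plus-strand locus of 24 exons (813942 to 864963), with 545 and 527 bases. Plus-strand loci of 22 exons, again not assembled in liver, were found on scaffolds 7728 (gap 392) and 22654 (gap 282). Those of 21 exons were on scaffolds 22706 (gap 148) and 22986 (gap 602). Minus-strand ones of 19 exons were found on scaffolds 5651 (gap 226) and 21284 (gap 52). All 10 mates were assembled in all 3 sets, and they had between 3 exons (scaffolds 6376 and 2701) and 28 exons (scaffold 5651).

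Partners found in 1 assembly were short and those found in all were long. The 1154 partners in all 3 assemblies had a median of 9 exons (quartiles 6 and 15) and 3.90% of them had 2 exons. The 58 partners of liver alone had a median of 3 exons, the 90 of muscle-2 alone 2, and the 28 of muscle-3 alone 3. Transcripts of at most 2 exons were all that was found in 34.5%, 57.8% and 39.3% of them. The 141 partners in both muscle assemblies and not in liver had a median of 6 exons, and 16.3% had 2. Among all spliced loci, 2-exon loci made up 6.78% of those in all 3 assemblies, 32.4% in liver alone, 49.1% in muscle-2 alone and 61.3% in muscle-3 alone. Exon number is the highest among all pooled transcripts of a locus, and a locus in more assemblies draws on more of them. The relation is thus partly built in, and the size of that part was not tested.

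**Figure D5:**
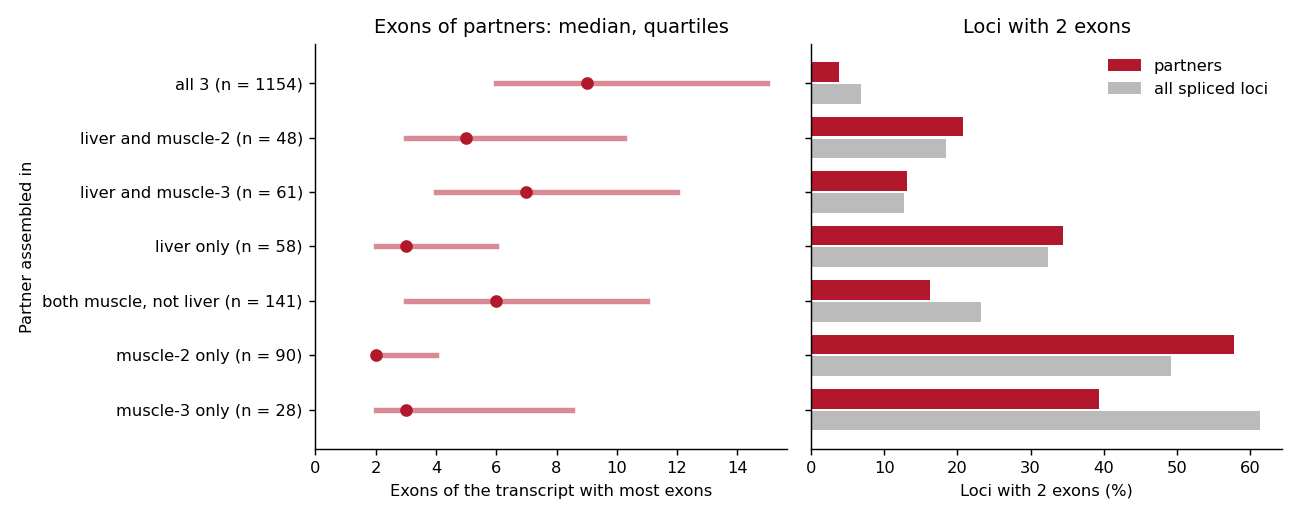
Exons of partners (left, median and quartiles) and share of loci with 2 exons (right, %), by the assemblies that hold the partner. Partners in all 3 assemblies have a median of 9 exons, and those of muscle-2 alone have 2. Red bars are partners and grey bars all spliced loci.

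Beside a mate in all 3 assemblies, the limited partner was usually the smaller one. Muscle-2-only partners had fewer exons than their mates in 60 of 74 pairs, with medians of 2 and 10 exons and spans of 2757 and 11468 bases. Liver-only partners had fewer exons in 32 of 45 pairs, with medians of 3 and 9. Partners in both muscle assemblies and not in liver had fewer in 58 of 91 and more in 27, with medians of 5 and 10. Here too the mate draws its exon number and span from more assemblies than the limited partner. Of the 158 pairs with exactly 1 partner in a single assembly, that partner lay on the minus strand in 97 and on the plus strand in 61. Over all 176 partners of a single assembly, 106 were on the minus strand (60.2%, 52.9 to 67.2), beside 1238 of 2424 other single-assembly loci (51.1%, 49.1 to 53.1). These intervals overlap slightly. Tail-to-tail pairs leaned the same way, with 61 minus-strand and 45 plus-strand partners of a single assembly.

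Set against all other loci, the partners were compact for their number of exons. They had a median of 8 exons, a span of 10270 bases and a spliced length of 2624.5 bases, against 7 exons, 11970 and 2560 bases in other loci. Among loci in all 3 assemblies, which had 9 exons in both classes, the median span was 12173 bases in partners and 16651.5 in other loci. The first intron was taken from the transcript with most exons, which need not reach furthest at the 5′ end. Its median was 917.5 bases in these partners and 1496.5 in other loci. First exons of the same transcripts had 126 and 139 bases. Introns found in 2 or more assemblies made up 85.4% of the introns of these partners and 85.8% of those of other loci, so the splicing of both classes was found again about equally often. Long loci can overlap a neighbour more easily, and overlapping loci are left out by the rule. The part of this in the difference was not tested. Partners of the other kinds of pair were not measured apart. Whether the compactness is particular to head-to-head pairs is thus not shown.

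The partners of a pair were not alike in exon number. The rank correlation of exon numbers between the minus- and the plus-strand partner was 0.0031 across 790 pairs, and that of spans was 0.24. Partners of a pair share a scaffold and its local gene density. The larger partner spanned 2.53 times the smaller in the median pair, and 10 or more times in 83 pairs. Both partners had 5 or more exons in 449 pairs (56.8%). Exactly 1 partner had 2 exons in 145 pairs, in 84 of them the minus-strand one and in 61 the plus-strand one, and both had 2 in 12 pairs.

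The pairs with the most exons joined at least 1 large gene to its neighbour. The pair on scaffold 14203, described above, had 101 exons in all. On scaffold 22771 (1789229 to 1866664) partners of 18 and 63 exons lay 60 bases apart, with the minus-strand one missing from muscle-2. On scaffold 22916 (170541 to 237204) a plus-strand locus of 73 exons lay 317 bases from one of 8 exons, with gaps of 3051 bases in liver, 317 in muscle-2 and 407 in muscle-3. Large loci on both sides were also found on scaffold 20140 (36 and 38 exons, gap 783) and scaffold 6055 (38 and 24 exons, gap 625). The others were on scaffolds 20308 (15 and 54 exons, gap 150), 22791 (58 and 11 exons, gap 579), 16617 (14 and 51 exons, gap 77), 21532 (12 and 52 exons, gap 303) and 22752 (5 and 55 exons, gap 340). The pair on scaffold 22791 was missing from muscle-2 on both sides.

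Unspliced transcripts were found in few of the gaps. One reached into the gap of 7 pairs in liver (0.886%, 0.430 to 1.82), 18 in muscle-2 (2.28%, 1.45 to 3.57) and 17 in muscle-3 (2.15%, 1.35 to 3.42), and of 32 pairs in any assembly (4.05%). They lay wholly inside the gap in 2 pairs and spanned it from partner to partner in 2. Gaps of the other kinds of pair were not searched, so these shares have no reference.

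RPKM, a read count divided by gene length and library size, could be set beside 6 pairs. The gene table gives no positions, so only scaffolds with exactly 2 listed genes and exactly 2 spliced loci were used, and which gene is which partner was not assigned. That the 2 listed genes are the 2 partners is the simplest match, not one that the files state. Their intervals are exact Poisson 95% ones for counting error, from reads worked out from the RPKM, and are too wide where only a lower bound of the reads was found. All 12 genes had the lower value in liver, as 78.8% of the 15394 listed genes did. Their median difference on the scale of log2(RPKM + 1), liver minus muscle, was -0.51. Over all genes it was -0.21, and -0.57 over the 4215 genes with 1 RPKM or more in both tissues. None of the 12 was 4-fold apart on that scale, a rule passed by 2.29% of all genes as higher in liver and by 4.49% as higher in muscle. With a pseudocount of 0.1 RPKM in place of 1, 2 of the 12 were.

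The length that the authors divided by is not given in the sources used here. For gene 1 on scaffold 13195 it worked out at 97321 bases or more. The partners there had spliced lengths of 4600 and 923 bases and spans, introns included, of 111067 and 101022 bases. On scaffold 10115 it worked out at 2215 and 3128 bases or more, beside spliced lengths of 541 and 972 and spans of 2120 and 3363 bases. These bounds lie above the spliced lengths and near the spans. Bounds of 336 bases for gene 2 on scaffold 13195 and 211 for gene 2 on scaffold 22871 lay below the spliced lengths of the partners there. A longer length would need all of a gene's read counts multiplied by 1 shared whole number. The match of genes to partners is thus in doubt on these scaffolds. Values are therefore set side by side between tissues for 1 gene, and not between genes. On scaffold 22871 (gap 79 bases, partners of 10 and 3 exons) gene 2 stood at 72.7 RPKM (67.4 to 78.2) in liver, and at 108 (104 to 113) and 98.7 (92.6 to 105) RPKM in the larger and smaller muscle libraries. Gene 1 stood at 1.28 RPKM (1.16 to 1.41) in liver and at 3.85 and 2.97 RPKM in the muscle libraries. Both partners were assembled in all 3 sets.

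On scaffold 10115 (gap 223 bases) the partners, of 2 and 5 exons, were both in all 3 sets. Gene 1 there had 3.63 RPKM (3.27 to 4.01) in liver, against 11.9 and 9.51 RPKM in the muscle libraries. Gene 2 had 7.68 RPKM (7.24 to 8.15) in liver, against 33.4 and 32.1 RPKM in the muscle libraries. Both were lower in liver, with differences of -1.34 and -1.96 on the scale of log2(RPKM + 1).

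On 2 of the 6 scaffolds 1 partner was not assembled in liver. On scaffold 19298 (gap 715 bases) it was the minus-strand partner of 3 exons, 19228 to 21264. Neither listed gene was tied to that partner, whose span was 2037 bases. Their lengths worked out at 26136 bases or more for gene 1 and 6105 or more for gene 2. The match of genes to partners is therefore in doubt on this scaffold. Gene 2 there had 0.0141 RPKM (0.00385 to 0.0362, from at least 4 reads) in liver and 0.0568 and 0.0999 RPKM in the muscle libraries, while gene 1 had 0.668 in liver and 0.965 and 1.02 RPKM in muscle. On scaffold 13195 (gap 333 bases) the partner missing from liver was the plus-strand one of 6 exons, 115034 to 216055. Neither listed gene was tied to it. Gene 2 there had 0.193 RPKM (0.0398 to 0.563, from at least 3 reads) in liver and 0.344 and 1.06 RPKM in the muscle libraries. Gene 1 had 0.770 RPKM in liver and 3.43 and 3.68 RPKM in muscle.

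On the other 2 scaffolds both partners were assembled in liver and in both muscle sets. On scaffold 6778 (gap 223 bases) the genes had 0.227 (0.210 to 0.245) and 0.385 (0.336 to 0.439) RPKM in liver, against 0.601 and 0.614 RPKM in the authors' muscle column. On scaffold 22404 (gap 511 bases) they had 0.0952 (0.0762 to 0.117) and 0.718 (0.651 to 0.791) RPKM in liver, against 0.372 and 1.66 RPKM in muscle. The 4 liver values rest on at least 650, 219, 87 and 414 reads.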

How the data were processed

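Libraries from total RNA were made with Illumina's TruSeq RNA kit, per the labels' protocols. The submitters' processing notes name TopHat, which aligns reads across splice junctions, and transcripts were assembled with Cufflinks, per the file columns. For versions, genome build, annotation and counting tool, the sources used here give nothing. The assemblies give 1-based scaffold positions. The Cufflinks score deposited with each transcript was not used. The authors deposited RPKM per gene, per the file headers.

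Spliced transcripts of the 3 assemblies were pooled, those sharing 1 base on a strand were merged, and neighbours within 1000 bases were paired, provided that no other locus lay wholly between them. Exons are those of the transcript with most exons. A partner counts as assembled where a spliced transcript of that assembly is part of its locus. The members and lists were chosen with earlier results of these data known. The pairs named are those of a fixed rule: smallest gaps, edge of the limit, most exons, partners differing in liver, most and least steady gap, and RPKM. Lists of tissue markers and of known pairs were not evaluated, because no symbols are paired with the IDs.

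For the 12 genes of the RPKM comparison, reads were worked out by searching for the shortest gene length at which both values give whole reads, so they are lower bounds; rows that are not genes were left out and held 27.2% of liver and 35.0% of muscle reads. Differences used log2(RPKM + 1), which understates those of low genes. Pair finding and read recovery were tested on simulated data. Python 3.11.15, numpy 2.4.6, scipy 1.17.1 and matplotlib 3.10.9 were used. Alternatives were other limits on the gap, 3 or more exons, overlapping ends, each assembly left out, other definitions of presence, pseudocounts and a filter on low RPKM.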

Additional observations from a re-analysis of the deposited data

Results flagged for a closer look

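No comparison used the reads that fell on no feature. Their share was 24.3% in liver and 30.6% in muscle.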

How the results depend on the processing

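Of 63 values under alternatives, 43 stayed close to the reported one: within 1.5 times for counts and the median gap, within the interval for shares. The number of pairs lay between 574 (gaps up to 500 bases) and 1021 (up to 2000), and the median gap between 207 and 399 bases. The share of pairs with both partners in both muscle assemblies and in all 3 became 71.1% and 57.2% with 3 or more exons. Fewer assemblies change what is counted: the shares were 86.1% and 69.4% without muscle-2, 86.4% and 61.1% without muscle-3, and both were 72.3% without liver. Where a transcript had to cover 50% of the locus, the shares for liver, both muscle assemblies and all 3 were 58.2%, 56.5% and 40.1%, and with unspliced transcripts counted 74.9%, 72.7% and 58.6%. Requiring an intron shared with another assembly gave 63.9% for liver. With such an intron required in both partners, chosen after seeing the data, the shares were 82.9%, 85.6% and 69.6%. Under that choice 92 of 609 pairs differed in liver, in place of 195 of 790. Under the planned definitions of presence this number was 272 with 50% of the locus covered, 247 with a shared intron and 177 with unspliced transcripts counted. With a pseudocount of 0.1 RPKM, 2 of 12 genes were 4-fold apart in place of 0. No paired analysis was possible because each tissue has 1 sample. Depth limits presence. A partner missing from an assembly had no spliced transcript assembled there, which does not show that it is absent from the tissue.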
